A study of Mus musculus with 2 samples.

Results

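The contactins, Cntn1 to Cntn6, were followed across the cell classes of the mouse hippocampus in a wild-type library and in a library from mice with a knock-in allele of Pigv. The members were chosen by symbol and not by a measured value, and all 6 were found among the 30223 gene rows of the table. The wild-type library was made from C57Bl.6/J mice, and the other from mice of the same strain homozygous for the allele labelled Pigv341E. The left and right hippocampi of 4 animals per genotype, 8 in all, were dissociated and pooled, so each genotype is 1 library of 10x droplets and no spread between mice can be measured. The differences below are therefore differences between 2 libraries, with no test, and genotype and library cannot be told apart. The labels give no age and no sex.

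Contactins are cell adhesion proteins of the immunoglobulin superfamily that have no transmembrane segment and are held in the membrane by a glycosylphosphatidylinositol (GPI) anchor. Pigv encodes a mannosyltransferase that acts early in building that anchor. Cntn1 (also called F3 or contactin) pairs with the Caspr protein Cntnap1 at the paranodes of myelinated axons, and Cntn2 (TAG-1) gathers Cntnap2 and potassium channels at the juxtaparanodes. Cntn3 to Cntn6 are neuronal contactins known for roles in neurite growth and wiring, and they bind the receptor phosphatase Ptprg. The data hold transcript values only, so nothing was measured of the anchor or of protein at the surface.

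The annotation (GENCODE M21, GRCm38) placed Cntn1 on the plus strand at chr15:92051165-92341967 and Cntn2 on the minus strand at chr1:132509427-132543256, the shortest of the 6 genes with 33.8 kb. Cntn5, on the minus strand at chr9:9660891-10904775, was the longest with 1244 kb. The other 3 members lay in a row on chromosome 6, within 4.54 Mb: Cntn3 at chr6:102162655-102573101 on the minus strand, then Cntn6 at chr6:104492790-104863406 and Cntn4 at chr6:105677660-106699310, both on the plus strand. Chl1, of the related L1 family, sits between Cntn3 and Cntn6, and the annotation has 0 other protein-coding genes in the gaps of this row. An antisense gene overlaps Cntn3 (4930587E11Rik) and another the start of Cntn5 (Gm32710). How the authors' counting used strand is not given in the sources used here, so reads of these pairs may not be separable.

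Cntn4 and Cntn6 had the most similar pattern over cell classes of any pair of members (below), and the windows of 250 bases before their RefSeq start sites (GRCm38.p6) are shown for that reason. The search was for the E-box CAGCTG, a palindrome and therefore the same on both strands, and for the TATA element TATAAA on both strands. In the lines that follow, capitals mark CAGCTG. A stretch of 30 bases on the plus strand is printed around the matches of each gene, chr6:106118677-106118706 for Cntn4 and chr6:104492897-104492926 for Cntn6.
Cntn4: gaaatctacagaCAGCTGtgtgctgtctca
Cntn6: ggaatggCAGCTGctccCAGCTGcctgagt
RefSeq gave 2 overlapping windows for Cntn4. The window of the upstream start site held 1 match, beginning 76 bases before that site. The other, at chr6:106118692-106118941, held 0 whole matches, because its edge cuts through that same match. The single Cntn6 window held 2 matches, the further of them beginning 140 bases before the start site. Of all 32851 RefSeq windows of this length, 13.0% held CAGCTG and 12.4% held TATAAA. Of the contactin windows, only 1 of Cntn1, at chr15:92127878-92128127, held TATAAA. The upstream Cntn4 window lies outside every GENCODE exon of the gene, at a start site inside the longest gene model, and the Cntn6 window lies wholly within annotated 5′ exons. No window of Cntn1, Cntn2, Cntn3 or Cntn5 held CAGCTG, which says only that these letters are not there. CpG content differed among the windows: those of Cntn5 held 24 and 26 CpG, that of Cntn3 held 0, and the median of all windows was 6. The Cntn5 windows lie at the annotated start of the gene. The Cntn3 window, at chr6:102464668-102464917, lies inside the gene model and does not describe its annotated start. No factor binding or methylation was measured, and a match is a description of the letters alone.

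The table held 7094 wild-type and 8836 knock-in cells. Its values are whole numbers in a narrow band of totals, treated here as corrected for depth, with a median total per cell of 8631 (wild-type) and 9608 (knock-in) and a median of 3122 and 3736 genes above 0, so the knock-in values reach more genes. Pigv, the edited gene, was low in both, at 0.0886 and 0.1004 per 10000, which does not check the allele. The level of a gene in a class is its share of everything summed over the cells of that class, per 10000. Pairs of values are given as wild-type, then knock-in. Levels are set side by side within a gene, not between genes. Clusters made without the contactins and their partners were named from marker genes, hence names ending in "-like", and 11 classes held at least 50 cells in each library. Of the 36 clusters, 9 stayed unnamed and are described by number. Shares of cells above 0 are given after thinning each cell to a total of 4000, with microglia-like cells as the class that should lack most contactins, and their 95% Clopper-Pearson intervals cover counting error only.

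Cntn1 was highest in oligodendrocyte precursor-like cells, at 13.0 and 12.8 per 10000 (211 and 301 cells). The median precursor-like cell had a value of 10 in both libraries, and the highest had 33 and 41. After thinning, 95.3% and 96.0% of these cells were above 0, against 55.0% and 47.2% of microglia-like cells. Both libraries of precursor-like cells stood above every other class. Dentate granule neuron-like cells followed at 6.11 and 5.97, then choroid plexus epithelium-like cells at 5.98 and 4.05, pyramidal neuron-like cells at 4.96 and 4.58, interneuron-like cells at 4.58 and 4.44 and astrocyte-like cells at 3.90 and 4.51. The order of these neighbours was not separated, because the libraries of adjacent classes overlapped. Fibroblast-like cells were lowest, at 1.56 and 1.66, with thinned shares of 48.1% and 43.1% that lay below those of microglia-like cells. By level, the highest class was 8.35 and 7.68 times the lowest.

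Cntn1 differed strongly along the oligodendrocyte lineage. In mature oligodendrocyte-like cells it was 2.83 and 2.62 per 10000, with a median value of 1 per cell. Yet 16 wild-type and 20 knock-in cells of that class had values of 10 or more, up to 77 and 67, which is above the highest precursor-like cell. This was noticed in the values, and the class was then divided by the number of newly formed oligodendrocyte markers (9 of the listed genes, among them Tcf7l2, Itpr2, Prom1 and Enpp6) at a value of 2 or more. Cells with 3 or more such markers, 47 wild-type and 54 knock-in, had 11.0 and 6.76 per 10000 of Cntn1. Cells with 2 markers (152 and 217) had 2.57 and 2.30, those with 1 (448 and 441) had 2.38 and 2.39, and those with 0 (414 and 395) had 2.45 and 2.46.

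Cntn1 thus stood higher in the mature-like cells with 3 or more newly formed markers in both libraries, but among them it was carried by few cells. Its median value was 1 there too, and 9 of 47 and 8 of 54 cells (19.1%, 95% interval 9.15 to 33.3, and 14.8%, 6.62 to 27.1) reached 10, against 2 of 414 and 3 of 395 cells with no marker. Of the 36 mature-like cells at 10 or more, 17 had 3 or more markers. The unnamed cluster 4 (443 and 397 cells) was not part of this split. It had all 10 mature oligodendrocyte markers and Enpp6 among its leading genes, yet its Cntn1 level was only 1.64 and 1.61. The extracellular matrix protein Tnr, a binding partner of Cntn1, was 8.14 and 9.78 in the cells with 3 or more markers and 1.81 and 1.74 in those with 0. The limit of 3 markers cuts a range and not a type, and 369 cells lay 1 marker below it. Scrublet, a doublet caller, marked 0 and 2 of the cells above it.

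**Figure D1:**
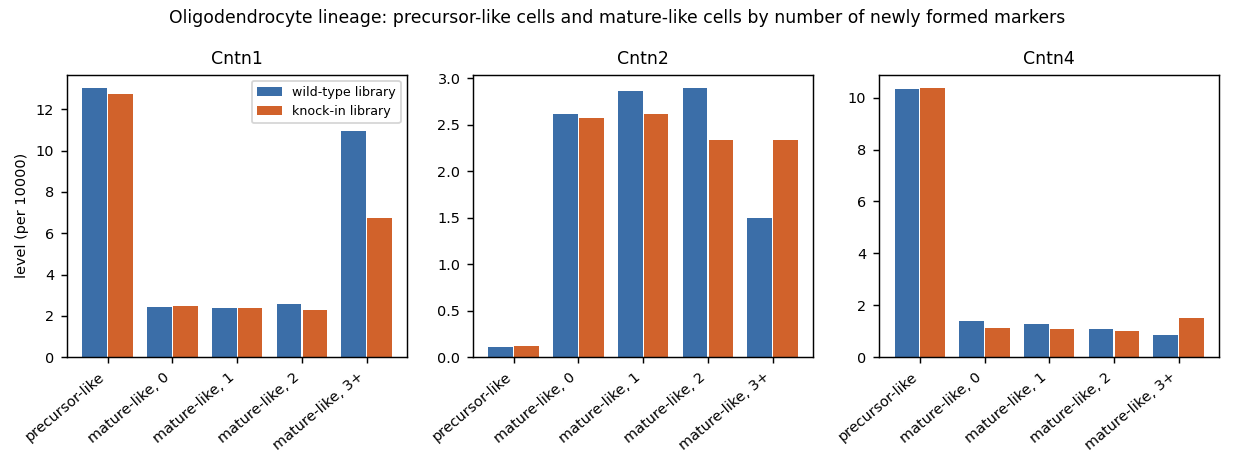
Level per 10000 of Cntn1, Cntn2 and Cntn4 (vertical axes) in precursor-like cells and in mature oligodendrocyte-like cells split by 0, 1, 2 or 3 and more newly formed markers, 1 bar per library. Cntn1 is 13.0 and 12.8 in precursor-like cells, near 2.4 with 0 markers, and 11.0 and 6.76 with 3 or more. Cntn4 is 10.3 and 10.4 in precursor-like cells and 1.52 or less in every mature-like group, and Cntn2 is lowest in precursor-like cells.

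Among choroid plexus epithelium-like cells, Cntn1 differed between clusters more than between libraries. Cluster 31, led by the serotonin receptor gene Htr2c (40 and 21 cells), had 9.27 and 9.13 per 10000, and cluster 26, led by the transthyretin gene Ttr (61 and 67 cells), had 3.56 and 2.40. The granule neuron marker list summed to 24.9 and 25.6 in cluster 31 and to 2.61 and 4.23 in cluster 26. In granule-like cells it summed to 36.9 and 38.9. Cluster 31 met 8 choroid plexus markers, none of them among its leading genes. Its median cell had 4044 genes above 0, against 2485 in cluster 26. The part of these granule markers in the Cntn1 level was not tested. The class as a whole was lower in the knock-in library (5.98 and 4.05, log2 ratio -0.55), as were 26.7% of all genes tested in that class at a limit of 0.5, and the knock-in library also held the smaller share of cluster 31. With equal cluster weights the log2 ratio was -0.24.

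Cntn2 was a gene of mature oligodendrocytes in these data. Its level in mature oligodendrocyte-like cells was 2.71 and 2.53 per 10000 (1061 and 1107 cells), with a median value of 2 per cell, a highest value of 12 and 10, and 57.0% and 56.1% of thinned cells above 0. In microglia-like cells that share was 4.22% and 4.87%. Cajal-Retzius-like cells came next at 0.656 and 0.421, and the class with the highest level was 45.2 and 31.1 times the lowest, the granule-like cells at 0.0599 and 0.0814. Precursor-like cells were at 0.109 and 0.116, so Cntn1 and Cntn2 had opposite orders along the lineage. The unnamed cluster 4 (443 and 397 cells), which had all 10 mature oligodendrocyte markers but was led by Anln and Enpp6, had 2.95 and 2.86.

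Among the granule-like clusters, Cntn2 was highest in one that also held mature oligodendrocyte markers. Cluster 29 (34 and 40 cells), with Smoc2 among its leading genes, had 0.917 and 0.914 per 10000, while the large granule-like cluster 0 (1300 and 1162 cells) had 0.0375 and 0.0522 and cluster 16 had 0.0506 and 0.0804. The 10 mature oligodendrocyte markers summed to 28.8 and 28.1 in cluster 29, which is 30.02% and 28.1% of their level in mature oligodendrocyte-like cells, and 33 of 34 and 40 of 40 of its cells had 3 or more of them at a value of 2 or more. In cluster 0 this held for 4 of 1300 and 7 of 1162 cells. Scrublet marked 6 and 4 cells of cluster 29, and with 15 principal components a cluster of 74 cells with mostly the same leading genes stayed unnamed because of these markers. Their part in the Cntn2 level was not tested, and Cntn2 is not read as a gene of granule-like cells.

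Among the named classes Cntn3 was highest in neurons, with no clear leader. Pyramidal neuron-like cells had 3.75 and 4.46 per 10000, Cajal-Retzius-like cells 3.58 and 4.32, and interneuron-like cells 3.91 and 3.64, an order that changed between the libraries. The unnamed cluster 4, which had all 10 mature oligodendrocyte markers, reached the same range with 3.78 and 4.25. Granule-like cells were lower, at 1.90 and 1.95. The 2 CA1 pyramidal neuron-like clusters differed from each other in both libraries: cluster 9, led by Pde11a (215 and 364 cells), had 6.62 and 7.35, and cluster 3 (604 and 592 cells) had 2.64 and 2.76. Cntn4 had the reverse order in the same clusters, 2.31 and 2.72 in cluster 9 and 6.00 and 5.94 in cluster 3. In cortical pyramidal neuron-like cells, a subclass named from cortical layer markers, cluster 7 had 8.32 and 7.33 of Cntn3 and cluster 15 had 1.62 and 1.03.

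Among the 11 classes Cntn4 was highest in precursor-like cells, at 10.3 and 10.4 per 10000. Their median value was 8 per cell in both libraries, and 92.4% and 90.4% of thinned cells were above 0. Unnamed clusters 20, 32 and 14 stood higher (below). Interneuron-like cells had 8.74 and 8.36, but unevenly: their median cell had a value of 2 and 3, and 53 of 155 and 76 of 253 cells had 10 or more. Pyramidal neuron-like cells came next, at 5.04 and 5.74, and all other classes were at or below 1.27. Within the pyramidal class the cortical subclass had 10.5 and 9.43, the CA1 subclass 5.03 and 4.71 and the CA3 subclass 0.905 and 0.930, an order with no overlap between libraries. In mature oligodendrocyte-like cells Cntn4 was 1.27 and 1.10, so the high level of the precursor-like cells was not found in the later stage.

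**Figure D2:**
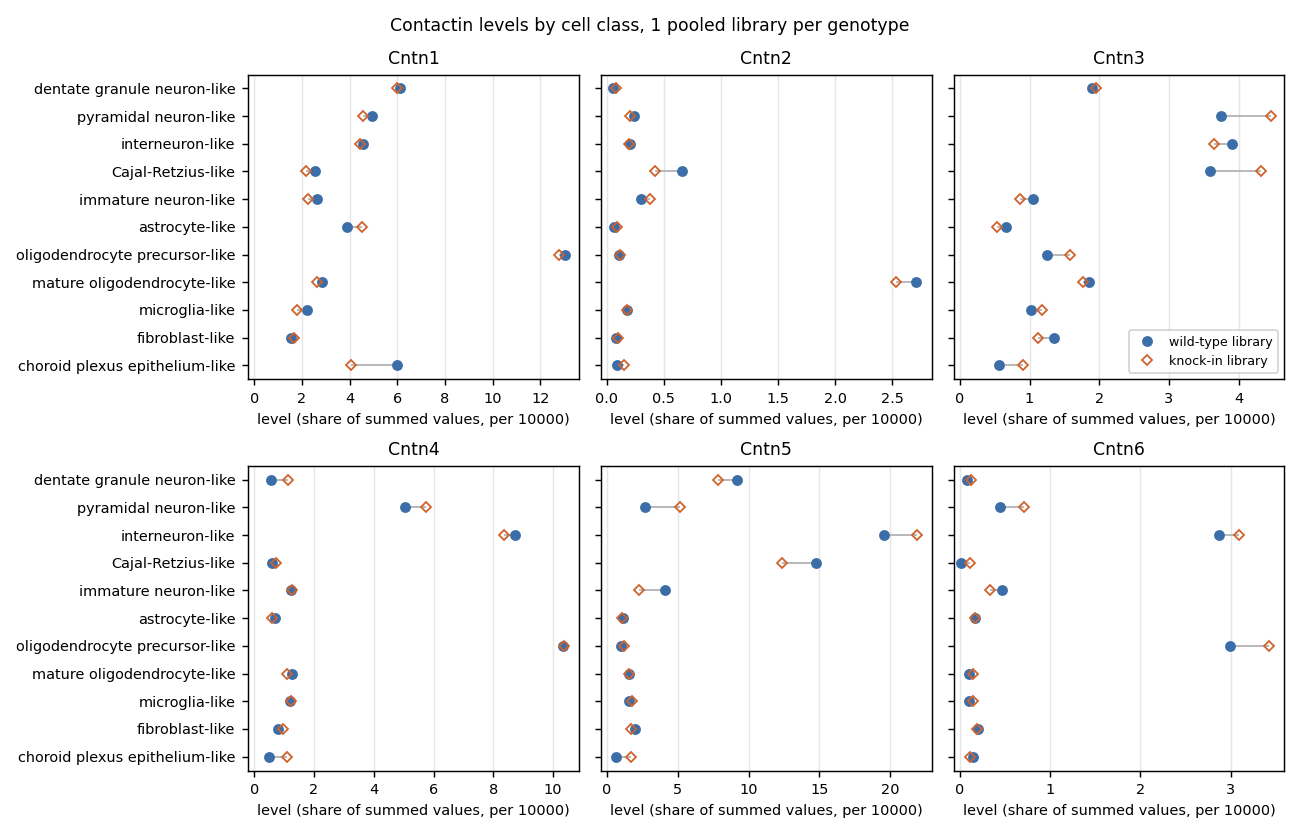
Level of each contactin (horizontal axes, per 10000, linear and different for each gene) in the 11 classes, with the wild-type library as filled circles and the knock-in library as open diamonds. Cntn1 and Cntn4 peak in precursor-like cells, Cntn2 in mature oligodendrocyte-like cells, and Cntn5 in interneuron-like cells.

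Cntn5 was a neuronal member with its highest class level in interneuron-like cells, at 19.6 and 21.9 per 10000 (155 and 253 cells). The spread between those cells was wide, with lower quartiles of 1 and 3, medians of 12 and 15, and highest values of 115 and 150. Cajal-Retzius-like cells had 14.8 and 12.4 and granule-like cells 9.17 and 7.86, and these 3 classes kept their order with no overlap between libraries. In granule-like cells 94.1% and 90.4% of thinned cells were above 0, against 43.1% and 40.1% of microglia-like cells. The cortical pyramidal neuron-like subclass had 11.2 and 12.3, whereas CA1-like cells had 1.10 and 1.59 and CA3-like cells 0.375 and 0.363. Precursor-like cells were near the bottom of the order, at 0.971 and 1.21.

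Granule neurons send their mossy fibres to CA3 pyramidal neurons, and Cntn5 differed widely between these 2 ends of the connection, as above. Granule-like clusters 0, 16 and 29 had 9.26 and 8.07, 8.57 and 7.11, and 7.49 and 6.23 per 10000. The level was lower in the knock-in library in all 3 clusters, which are parts of the same libraries and not repeats. The class log2 ratio was -0.22, with 6.07% of the genes tested in that class below it.

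Cntn6 was found in few of the 11 classes. Its level was 2.999 and 3.43 per 10000 in precursor-like cells and 2.87 and 3.10 in interneuron-like cells, which overlapped, and then 0.441 and 0.717 in pyramidal neuron-like cells. Within the latter, cortical-like cells had 1.91 and 1.80, and CA1-like and CA3-like cells had 0.139 and 0.134, and 0.126 and 0.0825. Thinned shares of cells above 0 were 57.3% and 59.8% in precursor-like cells and 51.0% and 48.6% in interneuron-like cells. They were 2.86% and 3.99% in granule-like cells, beside 2.71% and 3.82% in microglia-like cells.

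Cntn4 and Cntn6 were highest together in an unnamed cluster. It was picked after its values were seen, as the cluster with the highest Cntn6 level, so the counts below describe a chosen cluster. Cluster 20 (85 and 99 cells), led by Vwc2l, Sntb1 and Tshz2, met 3 pyramidal markers but none among its leading genes, and stayed unnamed. It had 34.6 and 26.8 per 10000 of Cntn4 and 18.4 and 15.3 of Cntn6. Its Cntn5 level was 1.28 and 2.02. All 53 wild-type cells of this cluster with a Cntn6 value of 10 or more also had a Cntn4 value of 10 or more (95% interval 93.3 to 100%), as did 46 of 50 knock-in cells (92.0%, 80.8 to 97.8%). Another 10 wild-type and 10 knock-in cells were that high for Cntn4 alone, and 14 and 23 cells were at 0 for both. The cluster thus held cells with both transcripts at high values and cells with neither.

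These shares stand beside 63 of 85 and 56 of 99 cells of the cluster that were at 10 or more for Cntn4. Of the interneuron-like cells with Cntn6 at 10 or more, 6 of 9 and 15 of 22 had Cntn4 at 10 or more, beside 53 of 155 and 76 of 253 of all interneuron-like cells. Of the precursor-like cells, 0 of 1 and 2 of 7 did, beside 76 of 211 and 119 of 301. The differences between these groups were not tested. Over the 11 classes, Pearson's r of log2(level + 0.1) between Cntn4 and Cntn6 was 0.91 and 0.95 in the libraries. It was 0.77 and 0.80 between Cntn3 and Cntn5, and lay between -0.34 and 0.63 for the other 13 pairs. These are descriptions over 11 points that share their library, cells and gene content.

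**Figure D3:**
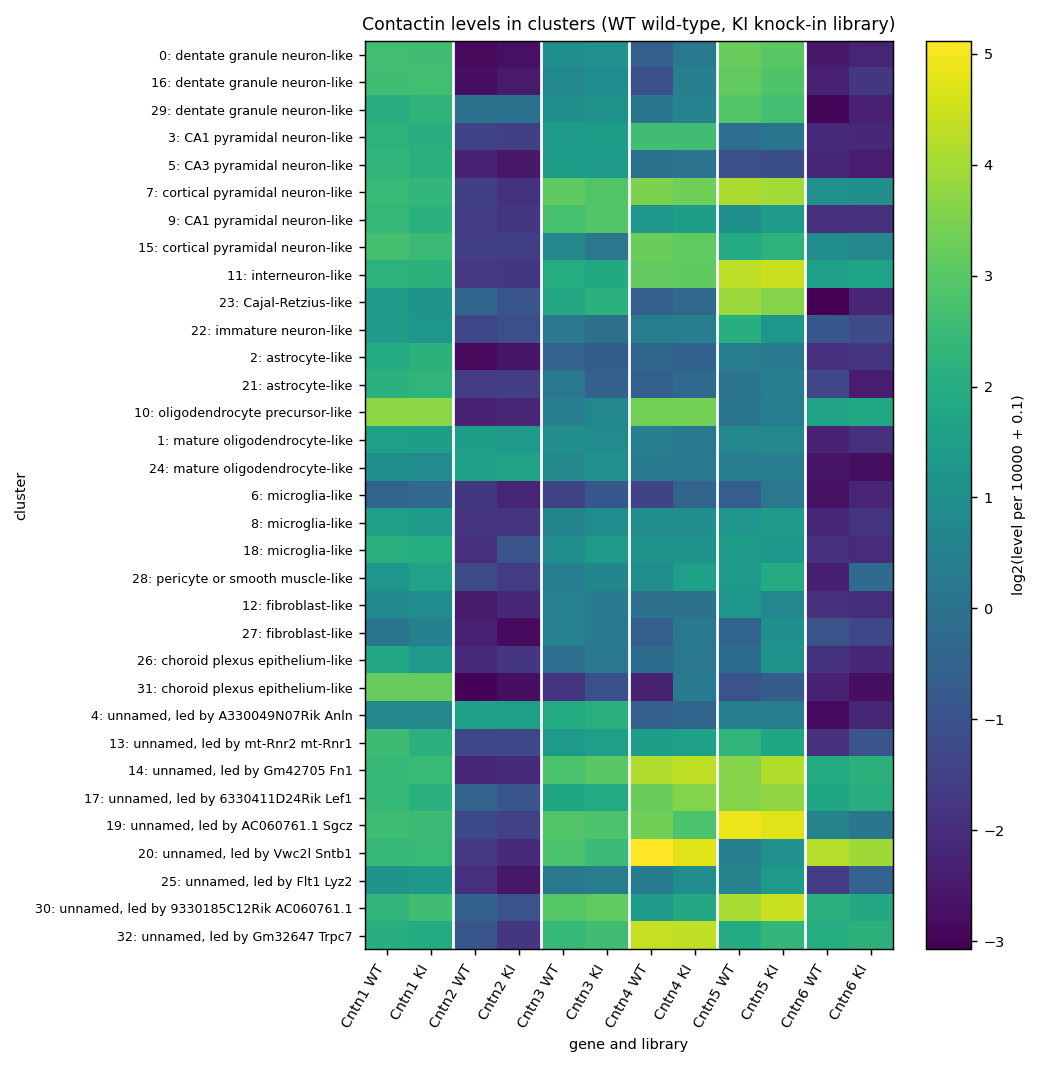
Level of each contactin in the clusters with at least 20 cells in each library (rows), by gene and library (columns), coloured as log2(level per 10000 + 0.1). Colours compare clusters within a gene. Cluster 20 is brightest for Cntn4 and Cntn6, cluster 10 (precursor-like) for Cntn1, and clusters 1, 24 and 4 for Cntn2.

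For each member, the 2 genes with the most similar class pattern were taken by the lower of the libraries' r over the 11 classes. The search covered 7395 genes with at least 0.5 per 10000 in a class of each library. Cntn1 was most like Chadl, a leucine-rich matrix protein gene (r 0.80), and Kcnh5, a potassium channel gene (0.79). Cntn2 was most like Stmn4, a stathmin gene (0.89), and Ccp110, a centriole protein gene (0.88). Cntn3 was most like Chsy3, a chondroitin sulfate synthase gene (0.90), and the retrotransposon-derived Rtl1 (0.89). Cntn5 was most like Cacng2, which encodes the AMPA receptor subunit stargazin (0.91), and March4, a ubiquitin ligase gene (0.89). Cntn4 and Cntn6 shared their nearest gene, Sgcz, a sarcoglycan gene (0.92 and 0.94), and Sgcz was highest in interneuron-like cells, at 18.5 and 19.8 per 10000. The next were the GABA receptor subunit gene Gabra3 for Cntn4 (0.92) and E230016M11Rik for Cntn6 (0.93). Some of these genes were low even in their highest class: Chadl (0.651 and 0.625), Rtl1 (0.614 and 0.795) and Gabra3 (0.706 and 0.803). The r values are descriptions over 11 classes.

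The libraries were then compared within each class, which asks whether transcripts of these GPI-anchored proteins differ where the anchor pathway carries the knock-in allele. The measure is the log2 ratio of knock-in over wild-type levels with 0.1 per 10000 added, which understates the change of low genes. A member was called when this ratio was at least 1 in absolute size, with a level of at least 1 per 10000 and at least 10% of cells above 0 in 1 of the libraries. Of the 66 pairs of member and class, 42 had that level. Of these, 1 was called higher in the knock-in library (2.38%) and 0 lower, against 0.569% and 0.435% of the 23204 gene and class pairs tested. The call was Cntn5 in choroid plexus epithelium-like cells. At a limit of 0.5, 4 pairs were higher and 2 lower (9.52% and 4.76%), against 3.65% and 4.87% of all pairs. The other pairs with that level differed by less than 0.5. Cntn1 in precursor-like cells (log2 ratio -0.03), Cntn4 in the same cells (0.01), Cntn2 in mature oligodendrocyte-like cells (-0.10) and Cntn5 in interneuron-like cells (0.16) were among these.

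Over all cells, 4 members had the level for a call and 0 were called, against 0.193% of 2075 genes higher and 0.0964% lower. The levels were 4.57 and 4.33 for Cntn1 (log2 ratio -0.07), 2.56 and 2.83 for Cntn3 (0.14), 3.43 and 3.98 for Cntn4 (0.21) and 4.99 and 5.46 for Cntn5 (0.13). Cntn2, at 0.668 and 0.539 (-0.26), and Cntn6, at 0.744 and 0.935 (0.29), were below the level. The median over all genes tested was -0.08. The make-up of the libraries also differed, and its part in these values was not tested. Mature oligodendrocyte-like cells, the class where Cntn2 is highest, were 14.96% of wild-type and 12.5% of knock-in cells. Cortical cluster 7, where Cntn5 is high, held 135 and 505 cells. Without cluster 7 the log2 ratio of Cntn5 was 0.01, and with equal class weights in both libraries that of Cntn2 was -0.13.

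**Figure D4:**
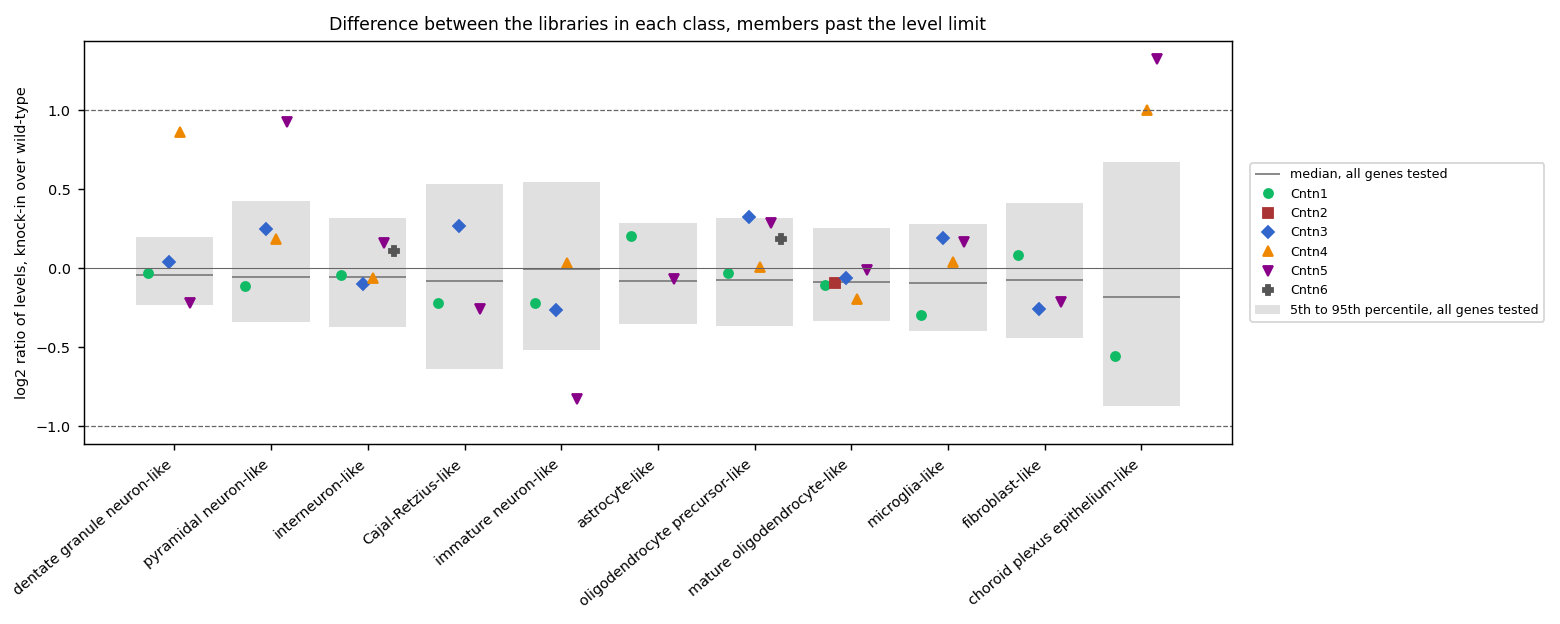
Log2 ratio of knock-in over wild-type level (vertical axis) in each class for the members past the level limit, over grey bars that span the 5th to 95th percentile of all genes tested there. Dashed lines mark 1 and -1. Outside the grey bars are Cntn4 in granule-like cells, Cntn5 in pyramidal and immature neuron-like cells, Cntn3 by a small margin in precursor-like cells, and Cntn4 and Cntn5 in choroid plexus epithelium-like cells.

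The ratio of Cntn5 in pyramidal neuron-like cells depended on how the clusters were weighted. The class had 2.68 and 5.17 per 10000 (1393 and 2078 cells, log2 ratio 0.92), 1 of the 4 members tested in the class past 0.5 on the higher side, against 3.80% of all genes there. Its subclasses differed less: 11.2 and 12.3 in cortical-like cells (0.13), 1.10 and 1.59 in CA1-like cells (0.49) and 0.375 and 0.363 in CA3-like cells. Cluster 7 itself had 17.2 and 15.8, so it was lower in the knock-in library, as were the CA3-like cells. Cortical-like cluster 15 was higher there, at 3.68 and 4.52 (0.29). So were CA1-like clusters 9 (1.95 and 2.58, 0.38) and 3 (0.798 and 0.968, 0.25). The cortical subclass held 241 wild-type and 730 knock-in cells. With equal cluster weights in both libraries the class ratio was 0.0017, and without cluster 7 it was 0.56. The class ratio of Cntn6 was 0.59 as deposited, 0.20 without cluster 7 and -0.10 with equal cluster weights. The part of the cluster mix in the differences between the libraries was not tested.

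**Figure D5:**
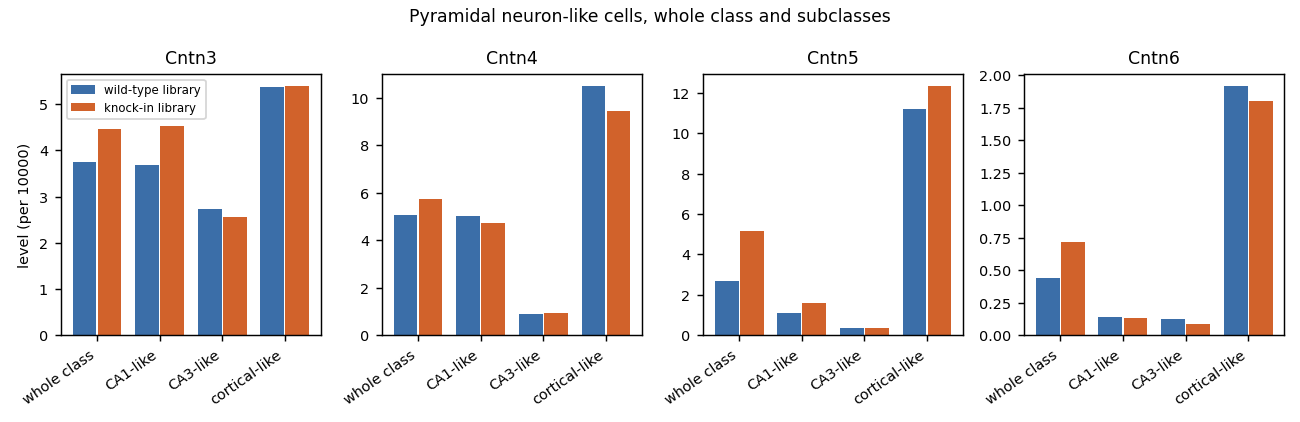
Level per 10000 (vertical axes, from 0) of Cntn3 to Cntn6 in the whole pyramidal neuron-like class and in its CA1-like, CA3-like and cortical-like subclasses, 1 bar per library. For Cntn5 the whole class has 2.68 and 5.17, while cortical-like cells have 11.2 and 12.3 and CA3-like cells have 0.375 and 0.363.

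Cntn4 had a higher knock-in level in granule-like cells, where it was low in both libraries. It had 0.569 and 1.12 per 10000 (1435 and 1428 cells), a log2 ratio of 0.86, and 99.6% of the 1993 genes tested in the class lay below it. It was 1 of 4 members past 0.5 on the higher side, against 1.20% of all genes. All 3 granule-like clusters had the same direction, with 0.573 and 1.07 in cluster 0, 0.374 and 1.299 in cluster 16, and 0.977 and 1.38 in cluster 29. These clusters are parts of the same libraries and not repeats, and cluster 29 also held mature oligodendrocyte markers. The median cell was at 0 in both libraries, 4 and 12 cells had values of 10 or more, and without those cells the levels were 0.540 and 0.948 (0.71). After thinning, 16.0% (95% interval 14.1 to 18.0) and 25.8% (23.5 to 28.1) of granule-like cells were above 0.

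That share lay below the 39.8% and 32.6% of all microglia-like cells, whose median gene number was 2498 and 2907 against 3902 and 4191 in granule-like cells. It lay above the 10.1% and 14.9% of microglia-like cluster 6, which carried the least of every contactin but Cntn2 among the microglia-like clusters. The level of Cntn4 in cluster 6 was 0.277 and 0.623 (log2 ratio 0.94), while microglia-like clusters 18 and 8 had ratios of 0.02 and 0.02. Whether background transcripts take part in the granule-like difference was not tested. Of the other classes' markers in granule-like cells, the interneuron list summed to 23.2 and 19.8 per 10000, the pyramidal list to 33.4 and 32.5 and the precursor list to 0.517 and 0.604. By ratio, the lists that were higher in the knock-in library by the most were low ones. They were those of Cajal-Retzius cells (0.121 and 0.242), fibroblasts (0.139 and 0.227) and microglia (0.909 and 1.41). By difference, it was the choroid plexus epithelium list (1.42 and 2.03). Their part in the Cntn4 difference was not tested.

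Cntn5 in choroid plexus epithelium-like cells had 0.621 and 1.70 per 10000 (101 and 88 cells, log2 ratio 1.32), where 1.42% of all genes tested were past 1 on the higher side and 2.13% on the lower. Cntn4 lay just under the limit in the same cells, with 0.491 and 1.08 (0.999). For each gene 3 knock-in cells had values of 10 or more, up to 37 for Cntn5 and 23 for Cntn4, while no wild-type cell exceeded 4. Without these cells the ratios were 0.59 and 0.05. Thinned shares, 23.8% and 34.1% for Cntn5 and 14.9% and 22.7% for Cntn4, lay below those of all microglia-like cells and above those of microglia-like cluster 6 (14.4% and 20.05% for Cntn5). Scrublet, run on the deposited values and not on raw counts, marked 0 cells of this class in either library. The marker list of Cajal-Retzius cells, a class high in Cntn5, summed to 0.752 and 2.04 there, the immature neuron list to 0.207 and 0.516, the pyramidal list to 6.42 and 8.45 and the interneuron list to 10.2 and 6.69. Their part in the differences was not tested.

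Cntn5 in immature neuron-like cells, a cluster led by Igfbpl1 and Sox11, was lower in the knock-in library, at 4.12 and 2.28 per 10000 (69 and 96 cells, log2 ratio -0.83). It was 1 of 4 members past 0.5 on the lower side, against 5.70% of all genes in the class. The median cell had a value of 1 in both libraries, and 9 of 69 and 3 of 96 cells had 10 or more. Without those cells the levels were 2.21 and 1.81 (-0.27). Thinned shares were 58.0% (45.5 to 69.8) and 49.0% (38.6 to 59.4), intervals that overlap. The interneuron marker list summed to 14.0 and 25.9 in this class, and its part in the difference was not tested.

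The binding partners of the contactins were described as a list of 26 genes, all in the table, of which 20 reached 1 per 10000 in a class. Over the 11 classes 150 pairs of partner and class had the level for a call, and 0 were called in either direction, against 0.569% and 0.435% of all pairs. At 0.5, 8 were higher and 2 lower (5.33% and 1.33%, against 3.65% and 4.87%). In the cortical-like subclass, which is not among the 11 classes, Cntnap5a had 3.18 and 6.82 (log2 ratio 1.08), where 0.731% of all genes were past 1 on the higher side.

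Of the Caspr family, Cntnap1, the paranodal partner of Cntn1, stayed at or below 0.706 per 10000 in every class. Cntnap2, the partner of Cntn2, was highest in Cajal-Retzius-like cells, at 114 and 116, and had 49.0 and 55.6 in interneuron-like cells. In mature oligodendrocyte-like cells, the class where Cntn2 was highest, Cntnap2 was 5.75 and 4.77, beside 5.91 and 5.32 in microglia-like cells. Cntnap4 was highest in interneuron-like cells (4.36 and 5.71), and Cntnap5a in immature neuron-like cells (19.5 and 13.9) and granule-like cells (13.9 and 12.9). Of the L1 family, Nfasc, which includes the glial neurofascin that faces Cntn1 across the paranode, was highest in mature oligodendrocyte-like cells (16.4 and 17.1). Nrcam was highest in astrocyte-like cells (10.1 and 10.5) and Chl1 in precursor-like cells (4.06 and 3.67), which overlapped with immature neuron-like cells (3.22 and 3.83).

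Tnr and the receptor phosphatase gene Ptprz1, whose products bind Cntn1, were highest in precursor-like cells, as was Cntn1. Tnr had 51.6 and 52.3 per 10000 there, and Ptprz1 had 18.5 and 19.3. Ptprg, the phosphatase bound by Cntn3 to Cntn6, had 14.6 and 15.2 in precursor-like cells and 15.2 and 13.0 in Cajal-Retzius-like cells, which overlap. The amyloid precursor gene App, whose product binds Cntn4, was highest in mature oligodendrocyte-like cells (14.3 and 13.8). It had 4.01 and 3.82 in precursor-like cells, the class where Cntn4 was highest. The potassium channel gene Kcna1 had 1.87 and 1.99 in mature oligodendrocyte-like cells.

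Thinned cells were also counted by how many of the 6 members they held above 0. The mean was 2.42 members per cell in both libraries, and it was highest in interneuron-like cells (3.187 and 3.202) and precursor-like cells (3.02 and 3.14) and in the cortical-like subclass (3.27 and 3.41). It was 1.68 and 1.55 in CA3-like cells, below the 1.81 and 1.62 of microglia-like cells. Cells with no member above 0 were 0.418% and 0.280% of granule-like cells and 23.6% and 24.9% of microglia-like cells. Since values of 1 can be filled in by a depth correction, these counts describe the deposited values and not molecules.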

How the data were processed

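Cells of 2 pooled libraries were measured by 10x Chromium v3 and sequenced on the same lane, per the labels' protocols. Seurat 3.0.0 and GRCm38 are named in the submitters' processing notes. The values the authors deposited are whole numbers with totals per cell between 4846 and 14501, a band narrower than raw counts, so they were treated as a score and not as counts. The sequencing depth is unknown, and no count model, p-value or standard error was computed. The aligner and the filter on cells are not given in the sources used here. No column was left unused, and 28 barcodes occurred in both libraries.

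Clusters were made with scanpy 1.11.5 and leidenalg 0.10.2 (2000 variable genes without contactins, partners and sex-linked genes, 30 principal components, 15 neighbours, resolution 1). A cluster took the class with at least 3 markers found in at least 25% of its cells at 1.5-fold or more. The names rest on these rules and may differ from the study's own. Cluster 17, led by Lef1 and Otx2os1, was left unnamed by a rule set after the clusters were seen. Doublets were kept: scrublet marked 60 wild-type cells (0.846%) and 150 knock-in cells (1.70%). It was run on the deposited values and not on raw counts, which limits what its calls say. No cell was filtered. The members, lists and rules were chosen with earlier results of these data known. Genes named are the members, partners with at least 1 per 10000 in a class, and the 2 most similar genes per member. Cntnap1 is named below that level for its pairing with Cntn1. Cluster genes, the overlapping genes and the split by newly formed markers were named after their values were seen. The ratio was tested on simulated data. Alternatives covered the amount added, weights, values of 1, filters, doublets and clustering.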

Additional observations from a re-analysis of the deposited data

How the results depend on the processing

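No paired analysis was possible because each genotype is 1 pooled library and no test was made. Of the log2 ratios over all cells, none changed sign under the 8 alternatives each was given. With values of 1 set to 0 they were -0.036 for Cntn1, 0.24 for Cntn3, 0.29 for Cntn4 and 0.19 for Cntn5. With 1 per 10000 added they were -0.12 for Cntn2, 0.10 for Cntn3 and 0.15 for Cntn6. With equal class weights they were -0.056 for Cntn1, -0.13 for Cntn2, 0.14 for Cntn4 and 0.16 for Cntn5. Without cluster 7, a setting chosen after seeing the data, as was leaving out cells at 10 or more, they were 0.049 for Cntn3, 0.13 for Cntn4 and 0.0102 for Cntn5. The pairs called higher numbered 4 at a limit of 0.5, where 2 were lower, 0 with 1 per 10000 added, and 2 with 0.01 added, with values of 1 set to 0, with cells filtered and with 15 principal components. Why the values moved was not tested, apart from what each setting leaves out. Of 664 class ratios under alternatives, 31 had another sign than the value given, all with a main ratio of 0.59 or less in absolute size. Cntn4 in granule-like cells lay between 0.43 and 1.09 over its alternatives. Shares of cells above 0 depended on the thinning: Cntn2 in mature oligodendrocyte-like cells was 57.0% and 56.1% at 4000, 22.3% and 21.4% at 1000, and 67.5% and 68.9% with no thinning. With 1 library per genotype, no difference could be set against the variation between mice.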

Other observations

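Unnamed clusters held several of the highest contactin levels. Cluster 19 (113 and 82 cells), led by Sgcz, Vwc2l and Npsr1, had the highest Cntn5, at 30.3 and 27.0 per 10000, with 7.39 and 6.81 of Cntn3 and 10.1 and 6.78 of Cntn4. Cluster 14 (140 and 192 cells), with Fn1 among its leading genes, had 17.5 and 19.9 of Cntn4, 12.4 and 18.0 of Cntn5, 6.80 and 8.05 of Cntn3 and 3.76 and 4.50 of Cntn6, so 4 members were high in it. Cluster 32, led by Trpc7 (25 and 21 cells), had 20.8 and 20.1 of Cntn4. Cluster 30 (20 and 44 cells), with Rxfp1 among its leading genes, had 16.2 and 21.5 of Cntn5 and 7.62 and 8.62 of Cntn3.

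Cluster 17 (84 and 225 cells), led by Lef1 and Otx2os1 together with Gad2, had 9.42 and 11.9 of Cntn4, 12.4 and 13.5 of Cntn5 and 3.30 and 3.94 of Cntn6. The naming rules left these clusters unnamed, although cluster 17 met 6 interneuron markers and clusters 19 and 32 met 5 pyramidal markers each. No comparison of the libraries was built on them.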
